A study of Bos taurus with 12 samples.

Results

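The genes described here are 10 Kruppel-like factors, KLF2, KLF3, KLF4, KLF5, KLF6, KLF7, KLF9, KLF10, KLF11 and KLF15, a family of zinc finger transcription factors. They were picked by gene symbol in the deposited mRNA table, where they are 10 of 33714 entries. All 10 passed the filter on low values, a mean of at least 0.1 FPKM over the libraries. FPKM, fragments scaled to transcript length and to the mapped reads of the library, is a level per length, so it can be set side by side between genes.

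The study sequenced RNA from cultured cattle (Bos taurus) cells, which the labels call intramuscular adipocytes from intramuscular fat, to follow their change into fat cells. There are 12 libraries, 3 from each of 0 d, 3 d, 6 d and 9 d of differentiation. Replicate libraries of the same day correlated with each other at r = 0.978 to 0.983 over the tested genes (12 pairs), and libraries of different days at r = 0.912 to 0.974 (54 pairs). The FPKM of a library summed to between 1221194 and 1371794, and the table gives no read counts. The paper reports read totals for the libraries, which were not used here, and the number of reads behind each value cannot be taken from FPKM alone.

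At 0 d the cells had grown to 90% confluence in DMEM-F12 with 15% fetal bovine serum and had received no inducing agent. The 3 d cells had been through 48 h in the same medium with dexamethasone, a synthetic glucocorticoid, with 0.5 mM IBMX, which blocks the breakdown of cyclic AMP, and with 5 µg/mL insulin, and had then been moved to insulin alone. The 6 d and 9 d cells had stayed on in medium with insulin. The labels and the methods of the paper give different concentrations of dexamethasone and insulin. No cells kept without the inducing agents were sequenced at 3 d, 6 d or 9 d, so time in culture, the inducing agents and their removal cannot be told apart. The paper calls the 3 replicates of a day biological, says that the cells of all days came from 1 batch, and takes the cells from longissimus dorsi of Qinchuan newborns, but neither it nor the labels say whether they are separate animals or separate dishes. The p-values below measure the spread between these libraries, which may be technical.

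The markers of the cells were read first. Fibroblast and preadipocyte markers were the most abundant, with a summed level of 119805 FPKM at 0 d, 171890 at 3 d, 132008 by 6 d and 220215 at 9 d, most of it the collagen COL3A1. The members of that list did not share 1 course between 0 d and 3 d. PDGFRA averaged 160 and 929.5 FPKM on those days and DCN 9949 and 42430, but COL1A1 3018 and 941 and PDGFRB 586 and 226. DLK1, a classic preadipocyte marker, had a mean of at most 0.0767 FPKM on any day. The summed level of 8 adipocyte markers was 36.4 ± 4.92 FPKM (SD, n = 3) at 0 d, 154 ± 3.26 at 3 d, 76.0 ± 5.69 by 6 d and 79.7 ± 9.63 at 9 d, and PLIN1, in an entry joined with PEX11A, had the highest mean of them over the 12 libraries. Adiponectin (ADIPOQ) averaged at most 0.723 FPKM on any day, and the fat cell regulator CEBPA at most 0.22 FPKM. The fatty acid carrier FABP4 averaged 3.30 FPKM at 0 d, 91.1 at 3 d, 26.4 by 6 d and 9.07 at 9 d, while leptin (LEP) averaged 2.34, 0.0700, 8.02 and 20.5 FPKM on the same days.

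Muscle markers were also present. The 7 skeletal muscle markers in the table summed to 876 ± 57.9 FPKM at 0 d, 286 ± 15.3 at 3 d, 399 ± 21.3 by 6 d and 314 ± 18.8 at 9 d, with DES the most abundant, and PAX7 had no entry. MYOD1, the myogenic master regulator, averaged 268 FPKM at 0 d, 109 at 3 d, 47.7 by 6 d and 54.6 at 9 d. In bulk RNA, fewer cells of a type and less RNA per cell cannot be told apart. Endothelial markers summed to at most 3.72 FPKM in any library. Blood and immune markers summed to 1.22 FPKM at 0 d, 3.63 at 3 d, 1.88 by 6 d and 2.79 at 9 d. They reached at most 3.74 in any library, with PTPRC and HBB at 0 in all 12. Epithelial markers consisted almost wholly of CDH1, between 8.50 FPKM at 0 d and 2.40 at 6 d, with EPCAM, KRT5 and KRT8 at 0. Markers of dividing cells summed to 47.2 FPKM at 0 d, 69.9 at 3 d, 47.5 by 6 d and 33.3 at 9 d. The part of these markers in the results below was not tested.

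Kruppel-like factors bind GC-rich and CACC elements through zinc fingers at their C-terminal end, and their other domains recruit either activators or repressors. Several of them act at different steps of fat cell formation in mouse cell lines, where KLF4, KLF5, KLF6, KLF9 and KLF15 favour it and KLF2, KLF3 and KLF7 oppose it. KLF10 and KLF11 were first known as genes induced early by TGF-beta. That grouping is background from other species and was not tested here.

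KLF9, a target of the glucocorticoid receptor that promotes PPARG expression in mouse preadipocytes, was the most abundant of the 10 in FPKM on every day. Its entry is joined with an uncharacterised gene, LOC104969351, so the reads of the pair cannot be separated. KLF9 was at 96.6, 87.3 and 89.8 FPKM in the 0 d libraries, 636, 649 and 658 at 3 d, 293, 286 and 283 by 6 d, and 178, 197 and 199 at 9 d. The 4 days did not overlap, in the order 3 d, 6 d, 9 d and 0 d from high to low. KLF9 rose at 3 d to 648 ± 11.1 FPKM (SD, n = 3) from 91.2 ± 4.81 before induction, a ratio of means of 7.10 and a log2 fold change of 2.83 (SE 0.06; limma, Benjamini-Hochberg adjusted p = 1.66e-10). A gene is called here when its log2 fold change is beyond 1 in either direction and its adjusted p is under 0.05, and "rose" and "fell" are kept for called genes. KLF9 then fell by 6 d, with a log2 fold change against 3 d of -1.17 (limma, Benjamini-Hochberg adjusted p = 9.79e-08). At 9 d it was above 0 d in all 3 libraries, with a log2 fold change of 1.07 (limma, Benjamini-Hochberg adjusted p = 5.27e-07), and the step from 6 d to 9 d, -0.59, stayed under the fold threshold.

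KLF15, which is induced by glucocorticoids and is known for driving GLUT4 (SLC2A4) and amino acid breakdown, was highest at 3 d and lowest at 9 d. KLF15 was at 13.9, 14.8 and 16.6 FPKM at 0 d, 29.4, 36.1 and 34.8 at 3 d, 10.3, 9.92 and 11.7 by 6 d, and 3.41, 4.53 and 4.79 at 9 d. All 3 libraries of 3 d were above all of 0 d, and the 9 d libraries were the lowest, with no overlap between any of the days. KLF15 rose at 3 d by a log2 fold change of 1.14 (SE 0.14; limma, Benjamini-Hochberg adjusted p = 5.99e-05). From 3 d to 6 d it fell, with a log2 fold change of -1.64 (limma, Benjamini-Hochberg adjusted p = 5.52e-06), and from 6 d to 9 d it fell again, by -1.32 (limma, Benjamini-Hochberg adjusted p = 0.000115). At 9 d KLF15 was below its 0 d level, 4.24 ± 0.733 against 15.1 ± 1.38 FPKM, with a log2 fold change of -1.82 (limma, Benjamini-Hochberg adjusted p = 5.82e-06). Whether KLF9 and KLF15 differ in their change was not tested.

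KLF5, which in mouse cells is switched on by C/EBP-beta and C/EBP-delta and binds the PPARG promoter, was highest at the end. KLF5 was at 76.9, 73.6 and 70.7 FPKM at 0 d, 43.2, 49.0 and 52.2 at 3 d, 41.6, 44.3 and 41.9 by 6 d, and 115, 119.6 and 118 at 9 d. The 3 d and 6 d libraries overlapped, all of them were below 0 d, and all 3 libraries of 9 d were above the other 9. KLF5 rose between 6 d and 9 d by a log2 fold change of 1.46 (SE 0.07; limma, Benjamini-Hochberg adjusted p = 1.1e-06). Against 0 d its log2 fold changes were -0.62 at 3 d, -0.79 at 6 d and 0.67 at 9 d, none beyond the fold threshold.

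KLF4, a pluripotency factor that acts with EGR2 on the CEBPB promoter early in mouse adipogenesis, was highest before induction. KLF4 was at 25.9, 21.1 and 29.0 FPKM at 0 d, 9.62, 10.4 and 10.6 at 3 d, 6.75, 9.14 and 6.56 by 6 d, and 12.2, 13.9 and 13.6 at 9 d. The days did not overlap, and 0 d replicate 2 was the lowest of its day. KLF4 fell at 3 d, with a log2 fold change of -1.29 (SE 0.15; limma, Benjamini-Hochberg adjusted p = 3.44e-05), and was lower still at 6 d, -1.75 against 0 d (limma, Benjamini-Hochberg adjusted p = 9.01e-06). At 9 d its log2 fold change against 0 d, -0.92, was under the threshold, but without 0 d replicate 2 it was -1.05 and called (limma, Benjamini-Hochberg adjusted p = 0.000652). That was the only 1 of the 12 fits without 1 library to call it, and after median ratio scaling the value was -0.71 and not called. EGR2 itself averaged 0.253 FPKM at 0 d and 0.0233 at 3 d.

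KLF6, a repressor of DLK1 in mouse preadipocytes, dipped at 3 d alone among the 4 days. KLF6 was at 28.0, 27.2 and 25.6 FPKM at 0 d, 6.71, 7.65 and 7.83 at 3 d, 31.5, 30.1 and 31.9 by 6 d, and 22.3, 23.6 and 24.2 at 9 d. The 3 d libraries were all far under the other 9, and the remaining days were close together without overlap. KLF6 fell at 3 d by a log2 fold change of -1.85 (SE 0.07; limma, Benjamini-Hochberg adjusted p = 1.44e-08) and rose from 3 d to 6 d by 2.06 (limma, Benjamini-Hochberg adjusted p = 1.04e-08). At 9 d its log2 fold change against 0 d was -0.20, and 0.01 after median ratio scaling of the libraries, so its direction there turns with the scaling.

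KLF2, a repressor of the PPARG promoter in mouse preadipocytes and better known from endothelial cells and T cells, was lowest at 3 d and highest before induction. KLF2 was at 10.8, 11.6 and 12.4 FPKM at 0 d, 1.09, 1.32 and 1.54 at 3 d, 2.55, 2.56 and 1.94 by 6 d, and 5.16, 4.70 and 6.17 at 9 d. The 4 days did not overlap, and the 9 d libraries lay between those of 0 d and 6 d. KLF2 fell at 3 d with a log2 fold change of -3.05 (SE 0.15; limma, Benjamini-Hochberg adjusted p = 9.7e-08), from a mean of 11.6 to 1.32 FPKM. At 6 d its log2 fold change against 0 d was -2.26 (limma, Benjamini-Hochberg adjusted p = 2.34e-06). KLF2 rose from 6 d to 9 d by 1.15 (limma, Benjamini-Hochberg adjusted p = 0.000581), a call lost at a pseudocount of 1 and without replicate 3 on all days, where the values were both 0.92. The step from 3 d to 6 d, 0.79, was 1.03 and called without replicate 3 on all days, an alternative chosen after seeing the data. At 9 d it was still below 0 d, -1.11 (limma, Benjamini-Hochberg adjusted p = 0.000356), which was -0.99 at a pseudocount of 1 and -0.90 after median ratio scaling, both short of the fold threshold. The 7 endothelial markers summed to between 2.52 and 3.72 FPKM in a library, with VWF the most abundant, and their part in the KLF2 values was not tested.

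KLF3, which recruits the corepressor CtBP and represses CEBPA in mouse cells, spread widely within 0 d and 6 d and little within 3 d and 9 d. KLF3 was at 17.5, 5.35 and 3.88 FPKM at 0 d, 2.86, 3.22 and 2.54 at 3 d, 8.88, 2.24 and 2.84 by 6 d, and 1.99, 2.34 and 3.46 at 9 d. Replicate 1 stood far above the other libraries at 0 d and again at 6 d. All 3 libraries of 0 d were above all of 3 d and 9 d, while 6 d overlapped the other days. No comparison of KLF3 was called, and its log2 fold change at 3 d was -1.29 with a 95% confidence interval from -2.61 to 0.03 (limma, Benjamini-Hochberg adjusted p = 0.0942). The KLF3 call depended on single libraries: at 3 d it was called without 0 d replicate 3 (-1.72; limma, Benjamini-Hochberg adjusted p = 0.0451) and without 6 d replicate 1 (-1.29; adjusted p = 0.0492). At 9 d, where the log2 fold change was -1.46, it was called without 0 d replicate 3 (-1.90; limma, Benjamini-Hochberg adjusted p = 0.0436) and without 6 d replicate 1 (-1.46; adjusted p = 0.0414). Without 0 d replicate 1 the log2 fold change was -0.65 at 3 d and -0.83 at 9 d. Without 6 d replicate 1 the step from 3 d to 6 d turned from 0.42 to -0.17, and the step from 6 d to 9 d from -0.59 to 0.00.

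KLF7, whose overexpression blocks fat cell formation in culture, stayed within a narrow range. KLF7 was at 43.9, 43.9 and 40.3 FPKM at 0 d, 54.2, 51.4 and 49.1 at 3 d, 65.9, 71.1 and 70.5 by 6 d, and 35.9, 35.6 and 33.9 at 9 d. The days did not overlap, with 6 d the highest and 9 d the lowest, but the ratio of those means was 1.97 and no comparison was called. Its log2 fold change from 6 d to 9 d was -0.98 (SE 0.06; limma, Benjamini-Hochberg adjusted p = 4.3e-06), and without 6 d replicate 1 it was -1.01 and called (limma, Benjamini-Hochberg adjusted p = 2.77e-05). No other of the 12 fits without 1 library called it, and after median ratio scaling the value was -0.94 and not called.

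KLF10, a repressor that lies in the TGF-beta pathway, was highest at 9 d. KLF10 was at 17.8, 31.0 and 30.2 FPKM at 0 d, 36.9, 19.2 and 34.5 at 3 d, 39.0, 39.3 and 22.6 by 6 d, and 46.4, 45.7 and 48.9 at 9 d. In each of the first 3 days 1 library was well under its neighbours, replicate 1 at 0 d, replicate 2 at 3 d and replicate 3 at 6 d, while the 9 d libraries were all above the other 9. The log2 fold change of KLF10 at 9 d against 0 d was 0.88 (SE 0.31; limma, Benjamini-Hochberg adjusted p = 0.0489), under the fold threshold, and 1.08 and called after median ratio scaling (limma, Benjamini-Hochberg adjusted p = 0.0226). Without 0 d replicate 1 the log2 fold change at 3 d turned from 0.18 to -0.08, and without 3 d replicate 2 the step from 3 d to 6 d turned from 0.17 to -0.13.

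KLF11, a close relative of KLF10 that binds the corepressor SIN3A, had the lowest mean of the 10 at 0 d and 6 d. Its place at 6 d rested on replicate 3, since in replicates 1 and 2 it was above KLF2, at 2.55 and 2.56 FPKM. KLF11 was at 4.63, 4.56 and 1.17 FPKM at 0 d, 2.50, 2.39 and 0.850 at 3 d, 3.12, 2.90 and 0.810 by 6 d, and 4.41, 3.38 and 4.16 at 9 d. Replicate 3 was the low library at 0 d, 3 d and 6 d, and not at 9 d. No comparison of KLF11 was called: its log2 fold change was -0.73 at 3 d, with a 95% confidence interval from -2.16 to 0.70, and 0.42 at 9 d. Its value at 3 d was -1.36 without 0 d replicate 3, -0.26 without 3 d replicate 3, -0.41 without 0 d replicate 1 and -0.42 without 0 d replicate 2. Its direction against 0 d turned at 6 d from -0.56 to 0.03 without 6 d replicate 3, and at 9 d to -0.21 without 0 d replicate 3. The step from 3 d to 6 d turned from 0.17 to -0.30 without 3 d replicate 3, to -0.15 without 6 d replicate 1 and to -0.10 without 6 d replicate 2.

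**Figure D1:**
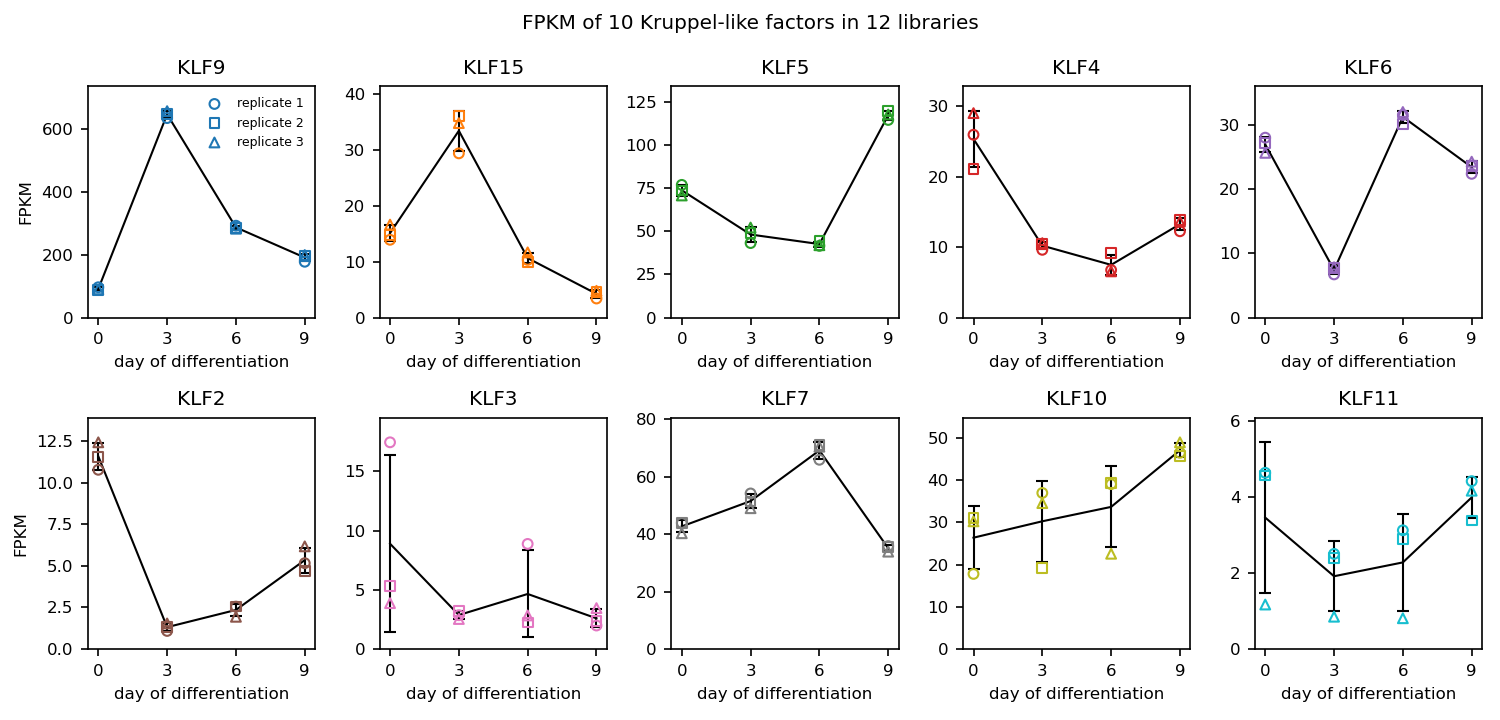
FPKM (y axis) of the 10 Kruppel-like factors by day of differentiation (x axis), with 1 symbol per library, lines through the day means and bars of 1 SD (n = 3). KLF9 and KLF15 peak at 3 d, KLF6 and KLF2 are lowest at 3 d, and KLF3, KLF10 and KLF11 spread widely within some of the days.

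Counted together, 5 of the 10 were called between 0 d and 3 d, 2 higher (KLF9 and KLF15) and 3 lower (KLF2, KLF6 and KLF4). Among all 15402 genes tested, 23.3% were called in that comparison, 8.06% higher and 15.2% lower. Without 0 d replicate 3 or 6 d replicate 1, KLF3 joined them and 6 were called. The median log2 fold change of the 10 was -0.67, against -0.06 for all genes tested.

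At 6 d against 0 d, 3 of 10 were called, KLF9 higher and KLF2 and KLF4 lower, where 11.4% of all genes were called, 3.39% higher and 7.97% lower. The median was -0.53 for the 10 and -0.15 for all genes. The -0.53 lies midway between KLF11, at -0.56, and KLF15, at -0.50, and KLF11 lay between -1.19 and 0.03 without 1 library. At 9 d against 0 d, 3 of 10 were again called, KLF9 higher and KLF2 and KLF15 lower, against a background of 10.9%, 3.41% higher and 7.47% lower, with medians of -0.24 and -0.19. The comparisons with 0 d share the same 3 libraries and are not independent of each other. Median ratio scaling moved the median of all genes by 0.16 at 6 d and 0.19 at 9 d, and moved the higher share of all calls from 29.8% to 40.6% at 6 d and from 31.3% to 46.6% at 9 d. With it KLF2 left the called genes at 9 d and KLF10 entered them.

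Between successive days, 3 of 10 were called from 3 d to 6 d, KLF6 higher and KLF9 and KLF15 lower, where 19.1% of all genes were called, 9.85% higher and 9.23% lower. The median was 0.17 for the 10 and -0.09 for all genes. The 0.17 lies midway between KLF10 and KLF11. Without 1 library KLF10 lay between -0.13 and 0.43 in that step, and KLF11 between -0.30 and 0.76. From 6 d to 9 d, 3 of 10 were called, KLF5 and KLF2 higher and KLF15 lower, where 4.43% of all genes were called, 2.55% higher and 1.89% lower. The medians of that step were 0.06 and -0.04. The 0.06 lies midway between KLF6, at -0.41, and KLF10, at 0.53. KLF10 lay between 0.26 and 0.66 in that step when 1 library was left out.

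**Figure D2:**
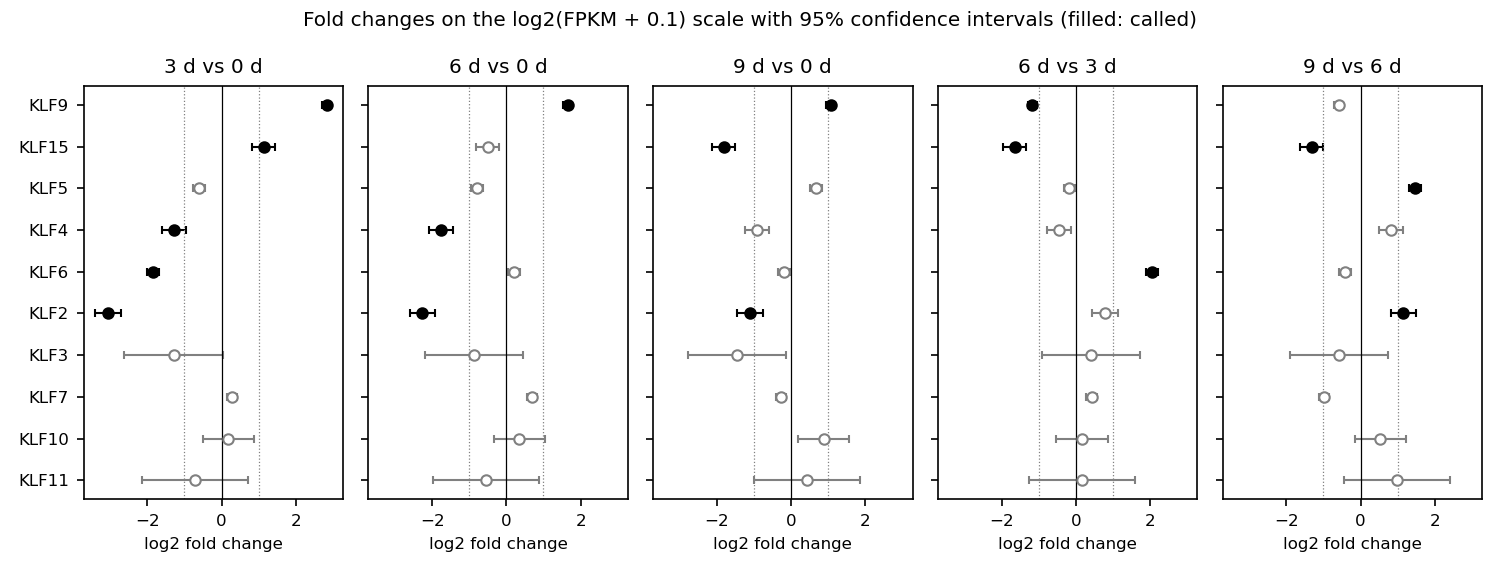
Log2 fold change (x axis) of each Kruppel-like factor in 5 comparisons of days, with 95% confidence intervals from limma and filled points for called genes; dotted lines mark the fold threshold. KLF9 at 2.83 and KLF2 at -3.05 are the outermost points of 3 d against 0 d, and the point of KLF6 at 9 d against 0 d, -0.20, is 0.01 after median ratio scaling.

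By presumed role, the 5 factors that favour fat cell formation in mouse cells did not share 1 direction. At 3 d 2 of these 5 rose and 2 fell, with a median log2 fold change of -0.62, and at 9 d 1 rose (KLF9) and 1 fell (KLF15), with a median of -0.20. Of the 3 that oppose it, KLF2 fell at 3 d, 6 d and 9 d against 0 d while KLF3 and KLF7 were not called, and the median of the 3 was -1.29 at 3 d, -0.87 at 6 d and -1.11 at 9 d. The medians at 3 d and 6 d are the values of KLF3, which lay between -1.72 and -0.65 at 3 d and between -1.47 and -0.24 at 6 d when 1 library was left out. Neither KLF10 nor KLF11 was called by limma in any comparison, and at an unadjusted p under 0.05 the count was 1 of 2 at 9 d against 0 d (KLF10) and 0 in the other comparisons. Over all 15402 genes tested, an unadjusted p under 0.05 was found for 57.3% at 3 d, 43.1% at 6 d and 45.3% at 9 d against 0 d, for 55.4% from 3 d to 6 d and for 32.0% from 6 d to 9 d, and the counts at that level given for lists are to be read against these shares.

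The make-up of the summed FPKM of the 10 differed between days mainly in KLF9. The sum was 325 ± 9.10 FPKM at 0 d, 835 ± 15.2 at 3 d, 491 ± 15.3 by 6 d and 443 ± 17.0 at 9 d (SD, n = 3). Without KLF9 it was 234 ± 4.71, 187 ± 6.58, 204 ± 11.6 and 252 ± 5.39 FPKM on the same days. KLF9 held 28.0% ± 0.761 of the sum at 0 d, 77.6% ± 0.553 at 3 d, 58.5% ± 1.16 by 6 d and 43.1% ± 1.02 at 9 d. KLF5 was the next most abundant at 0 d with 22.7% and at 9 d with 26.5%, and its share was 5.76% at 3 d and 8.67% at 6 d. KLF7 took that place on average at 3 d with 6.18% and at 6 d with 14.1%. In 3 d replicate 3 KLF5 was above KLF7, at 6.13% against 5.76%. KLF2 made up 3.57% at 0 d and 0.157% at 3 d. These shares are a description with no test, and a share of any other factor is lower at 3 d partly because KLF9 is in the sum.

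**Figure D3:**
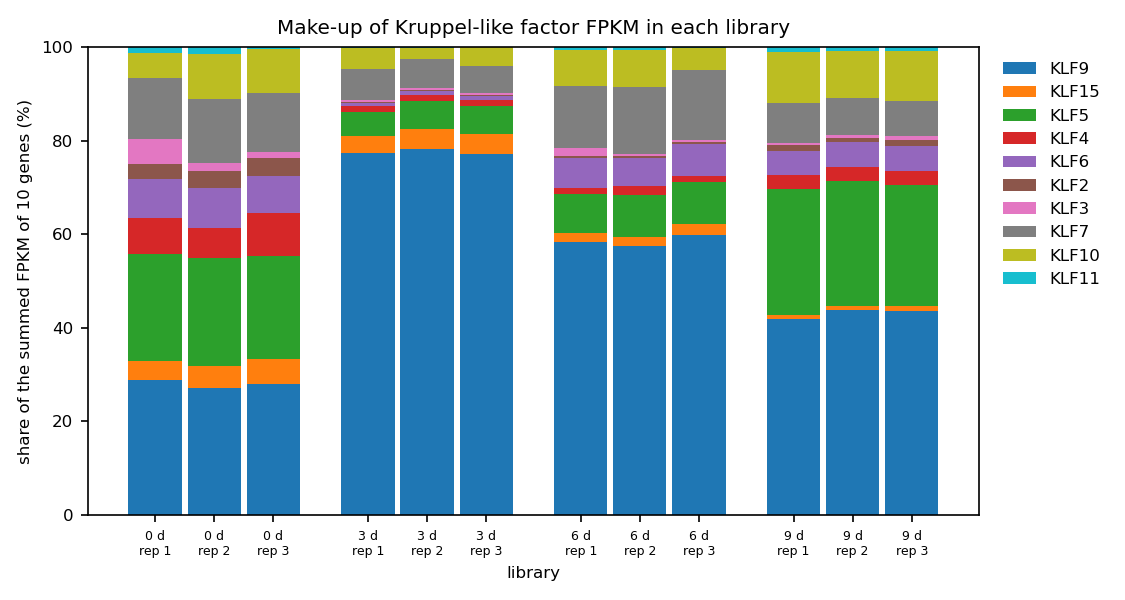
Share of the summed FPKM of the 10 Kruppel-like factors (y axis, percent) held by each factor, in a stacked bar for each of the 12 libraries (x axis). KLF9 holds between 77.2% and 78.2% in the 3 d libraries and between 27.2% and 28.8% in the 0 d libraries.

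Over the 12 libraries, the log2 levels of KLF2 and KLF9 correlated at r = -0.97, the lowest of the 45 pairs of members, followed by KLF5 and KLF7 at -0.93. The highest was KLF2 with KLF4 at 0.84. These values describe 12 points that share only 4 days, so they mostly reflect the order of the day means.

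Other genes with the most similar course were sought for each member among entries with a mean of at least 1 FPKM and a single symbol that does not start with LOC. These were 9657 genes for KLF9 and 9656 for each of the others. Here too r mostly reflects the order of 4 day means, and it does not measure the size of a change. ATXN7L3B, among the best matches of KLF15, had day means between 472 and 715 FPKM, and KLF15 between 4.24 and 33.4. KLF9 was most like MAOA (r = 0.997 over 12 libraries), CSF1 (0.994) and TMEM165 (0.993). MAOA breaks down monoamines and is known to be induced by glucocorticoids. KLF15 was most like SEC14L1 (0.985), ATXN7L3B (0.981) and TCTA (0.981), and KLF5 most like BIRC3 (0.990), an inhibitor of apoptosis, MYO10 (0.966) and CCDC85B (0.963). KLF6 was most like SEC23A (0.996), a coat protein of secretory vesicles, SELENOV (0.995) and PYCR1 (0.995), an enzyme of proline synthesis. KLF2 was most like VSIR (0.994) and ARAP1 (0.991). KLF4 was most like C28H1orf198 (0.979), ARHGAP18 (0.976) and CAMK1 (0.968), and KLF7 most like TACC1 (0.963), GPR63 (0.962) and DGKD (0.958). The 3 members that spread widely within some days had weaker matches, of which the best were NEK8 for KLF3 (0.878), NUP50 for KLF10 (0.923) and GTF2IRD2 for KLF11 (0.953).

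Genes known to be induced by glucocorticoids were read over the same days. For this list and those after it, the counts called are to be read against the shares of all 15402 genes tested. Against 0 d these shares were 23.3% at 3 d, 11.4% at 6 d and 10.9% at 9 d. From 3 d to 6 d the share was 19.1%, and from 6 d to 9 d it was 4.43%. Of 15 such genes, which include neither KLF9 nor KLF15, 13 rose and 1 fell at 3 d, with a median log2 fold change of 2.97 against -0.06 for all genes tested. ZBTB16, a zinc finger repressor, averaged 0.343 FPKM before induction and 282 FPKM at 3 d, a log2 fold change of 9.29. FKBP5, a chaperone that dampens the glucocorticoid receptor, rose by a log2 fold change of 7.02, PDK4, a brake on glucose oxidation, by 5.95 and the metallothionein MT2A by 5.21. The 13 rises kept their call in every alternative in which the gene was tested. The 1 that fell was ERRFI1, -1.01, a call lost in several alternatives, among them at a pseudocount of 1 (-0.96), without 0 d replicate 2 (-0.93), without 3 d replicate 1 or replicate 2 (both -0.98) and after median ratio scaling (-0.93).

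Later steps went mostly the other way. From 3 d to 6 d, 10 of 15 fell and 1 rose, with a median of -1.54, and PDK4 (-4.94), BCL6 (-3.40) and ANGPTL4 (-2.58) fell most while ERRFI1 rose (3.34). FKBP5, 1 of the 10 (-2.11; limma, Benjamini-Hochberg adjusted p = 0.0422), lost its call after median ratio scaling, with no filter, with only the 6 libraries compared and with a replicate block (adjusted p = 0.0516 to 0.0979). It was also lost without any 1 of the 0 d libraries, 3 d replicate 1 or 3, 6 d replicate 1 or 2, or 9 d replicate 1 (limma, Benjamini-Hochberg adjusted p = 0.0531 to 0.135). DUSP1, at 629 and 815 FPKM, and SGK1, at 60.7 and 75.6 FPKM, were higher at 6 d than at 3 d on average without a call. From 6 d to 9 d, 8 of 15 fell and none rose, with a median of -1.25, among them ZBTB16 (-2.70), CRISPLD2 (-2.17) and MT2A, which averaged 45.4 FPKM at 6 d and 11.2 at 9 d. Of these 8 falls 6 kept their call in every alternative, and those of PDK4 and PER1 were lost at a pseudocount of 1 (both -0.77). Against 0 d, 10 of 15 were higher and none lower at 6 d, with a median of 1.40, and 6 were higher and 1 lower at 9 d, with a median of 0.67. At 6 d 8 of the 10 kept their call in every alternative, and 2 did not, PDK4 (0.62 at a pseudocount of 1, and 0.90 to 0.93 without 0 d replicate 1 or 3 or 6 d replicate 1) and PER1 (0.87 at a pseudocount of 1). At 9 d 3 of the 6 did. ANGPTL4 was lost at a pseudocount of 1 (0.69) and without 0 d replicate 1 or 9 d replicate 1 or 3 (0.92 to 0.96), BCL6 with only the 6 libraries compared (limma, Benjamini-Hochberg adjusted p = 0.0688) and without 0 d replicate 2 or 3 or 9 d replicate 2 or 3 (adjusted p = 0.065 to 0.104), and FKBP5 at a pseudocount of 1 (adjusted p = 0.051). The lower gene at 9 d was SGK1, at 84.2 FPKM on average before induction and 20.9 at 9 d. KLF9, at 1.66 and 1.07 on those days, was close to these medians, whereas KLF15, at -0.50 and -1.82, was under them. No library without dexamethasone was sequenced at these days, so the values cannot be assigned to 1 agent.

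**Figure D4:**
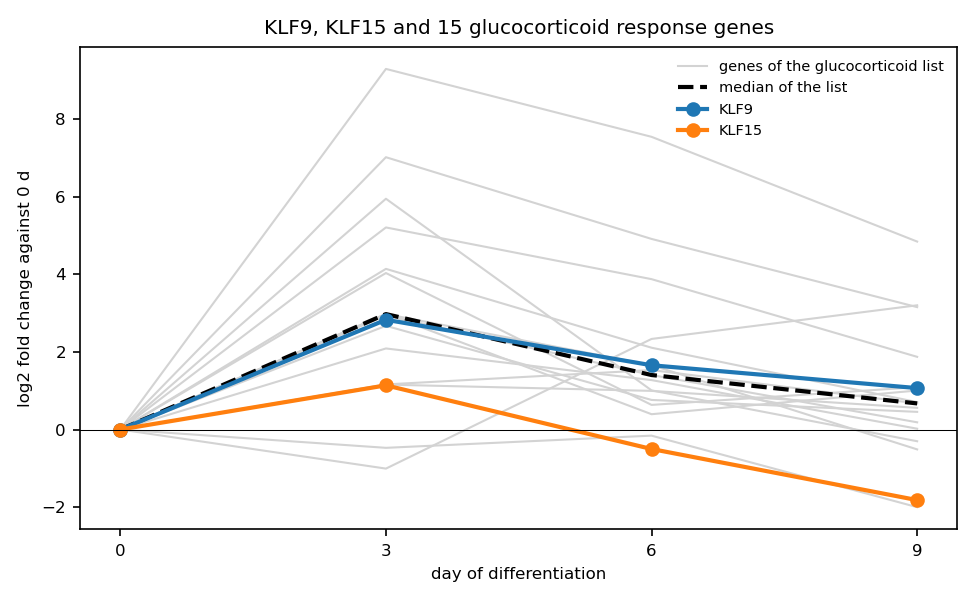
Log2 fold change against 0 d (y axis) by day of differentiation (x axis) for KLF9, KLF15 and 15 genes known to be induced by glucocorticoids (grey lines; dashed line, their median). KLF9 runs beside the median of 2.97 at 3 d, 1.40 by 6 d and 0.67 at 9 d, and KLF15 lies below it on each of these days.

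The genes of the fat cell program around these factors were tested for 12 of 14. At 3 d 4 rose and 1 fell, with a median log2 fold change of 0.77, led by FABP4 (4.75), ADIPOQ (2.68) and the lipase LPL (4.53 FPKM on average before induction and 10.6 at 3 d), while EGR2 fell (-1.52). ADIPOQ and EGR2 were under 1 FPKM, and both calls were lost at a pseudocount of 1, where they were 0.74 and -0.29. CEBPD, which in mouse cells acts ahead of KLF5, averaged 1096 FPKM at 0 d and 2440 at 3 d, and CEBPB averaged 278 and 550.5 FPKM. From 3 d to 6 d, 5 of the 12 fell and 1 rose, with a median of -0.85, among them FABP4 (-1.78), LPL (-1.76) and GATA2 (-1.63), a repressor of PPARG. The rise, of EGR2, was lost at a pseudocount of 1 (0.26). Of the 5 falls 4 kept their call in every alternative, and that of RXRA, the partner of PPARG, was lost at a pseudocount of 1 (-0.94), after median ratio scaling (-0.92) and without 3 d replicate 2 or 3 or 6 d replicate 3 (-0.97 to -0.99). At 6 d against 0 d, 2 of the 12 were higher and none lower, and at 9 d 2 were higher (FABP4 at 1.42, and ADIPOQ) and 1 lower (GATA2 at -1.78), with medians of -0.16 and 0.20. Among all genes tested, 11.4% were called at 6 d and 10.9% at 9 d. The ADIPOQ call was lost at a pseudocount of 1 at 6 d and 9 d (0.63 and 0.62), at 6 d with only the 6 libraries compared (2.22; limma, Benjamini-Hochberg adjusted p = 0.0578) and without any 1 of the 0 d libraries or 6 d replicate 1 (1.42 to 2.26), and at 9 d without 0 d replicate 1, 9 d replicate 1 or 9 d replicate 2 (2.05 to 2.26). From 6 d to 9 d, 2 rose and 1 fell (FABP4, -1.54), with a median of -0.02. The 2 that rose, LPL and EGR2, lost that call at a pseudocount of 1 (0.85 and 0.34) and without 6 d replicate 1 (0.97 and 0.93), LPL also without 9 d replicate 3 (0.84) and EGR2 without 6 d replicate 3 (0.93). SLC2A4, a target of KLF15, averaged 1.85 FPKM at 0 d, 1.66 at 3 d, 1.29 by 6 d and 1.17 at 9 d and was not called.

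Enzymes of amino acid breakdown, a pathway that KLF15 controls in liver and muscle, were read in a list of 9 genes. Of these 8 were tested, with TAT at 0 in every library. The 8 include ACSS2, which acts on acetate and not on an amino acid. ACSS2 was called in none of the comparisons but enters the medians below. At 3 d 2 rose and 3 fell, with a median log2 fold change of -0.41, where 23.3% of all genes tested were called. PRODH, which starts proline breakdown, rose by 2.60 from a mean of 0.103 to 1.11 FPKM, a call lost at a pseudocount of 1 (0.93). GPT, alanine aminotransferase, rose by 1.02, a call also lost at a pseudocount of 1 (0.56), without 0 d replicate 1 or 3 (0.98) and without 3 d replicate 3 (0.94), and neither rise is left at a pseudocount of 1. BCAT2, which takes the amino group from branched-chain amino acids, fell by 1.95 on the log2 scale, AASS fell by 1.14 and BCKDHB fell by 1.13. Without replicate 3 on all days BCKDHB was at -0.99 and not called. From 3 d to 6 d 2 rose and 2 fell (median 0.20). The falls were those of GPT and PRODH, both lost at a pseudocount of 1 (-0.56 and -0.64), that of GPT also after median ratio scaling and without 3 d replicate 3 or 6 d replicate 2 (-0.94 to -0.95). From 6 d to 9 d none rose and PRODH fell (-1.58, and -0.36 without a call at a pseudocount of 1), with a median of -0.22. Against 0 d, 1 was higher (PRODH) and 1 lower (BCKDHB) at 6 d (median -0.01), and none was higher and 2 were lower at 9 d, BCKDHB (-1.77) and BCAT2 (-1.19), with a median of -0.32. The share of all genes called was 11.4% at 6 d and 10.9% at 9 d. The PRODH call at 6 d against 0 d was lost at a pseudocount of 1 (0.30) and without 0 d replicate 3 (0.99). The BCKDHB call at 6 d was lost at a pseudocount of 1 (-0.97), after median ratio scaling (-0.93) and without 6 d replicate 2 (-0.99). The BCAT2 call at 9 d was lost without 9 d replicate 1 (-0.99) and after median ratio scaling (-0.98).

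Early response genes, which like KLF2, KLF4, KLF6 and KLF10 answer serum and other stimuli within a short time, gave 2 higher and 4 lower of 17 at 3 d, with a median log2 fold change of 0.15. In that comparison 23.3% of all genes tested were called. FOSL1 fell by 3.00 and IER3 fell by 2.32 on the log2 scale at 3 d, and MYC rose by 1.56. Of the 4 lower calls 2 were lost, EGR2 at a pseudocount of 1 (-0.29) and SRF at a pseudocount of 1 (-0.97), after median ratio scaling (-0.95) and without 0 d replicate 3 (-0.96) or 3 d replicate 1 (-0.95). From 3 d to 6 d 3 rose and 3 fell (median 0.22), with IER3 at 2.68, FOSL1 at 1.78 and NR4A3 at -2.01. At a pseudocount of 1 the calls of EGR2 (0.26), EGR3 (-0.92) and FOSB (-0.58) in that step were lost, and that of EGR3 also without 3 d replicate 2 (-0.99). From 6 d to 9 d, 7 of 17 rose and 1 fell, with a median of 0.68. In that step 4.43% of all genes were called, 2.55% higher and 1.89% lower, with a median of -0.04. NR4A3 (2.19), FOSL1 (1.94) and NR4A1 (1.83) led the rises, while JUN fell (-1.59). Of the 7 rises 6 kept their call in every alternative, EGR2 being the other. KLF5 and KLF2 rose in the same step, but the KLF2 call was lost at a pseudocount of 1 (0.92). At 6 d against 0 d 1 was higher and 3 lower (median -0.14), of which FOSB was lost at a pseudocount of 1 (-0.50), and at 9 d 3 were higher, JUNB (1.56), IER3 (1.51) and NR4A1 (1.11), and none lower (median 0.70). The share of all genes called was 11.4% at 6 d and 10.9% at 9 d. The medium was replaced at intervals, and the labels do not say how long before harvest.

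Genes of TGF-beta signalling, to which KLF10 and KLF11 belong, gave 3 lower and none higher of 13 at 3 d, with a median log2 fold change of -0.35, where 23.3% of all genes tested were called. CTGF, a matrix protein and a common readout of TGF-beta and YAP, fell from a mean of 2436 to 56.4 FPKM, a log2 fold change of -5.43, and rose by 4.90 from 3 d to 6 d. LTBP2 fell by 1.26 and TGFB3 fell by 1.18 on the log2 scale at 3 d, the latter a call lost at a pseudocount of 1 (-0.85). TGFBI was higher at 6 d (3.42) and at 9 d (2.70) than at 0 d, where 2 were higher and none lower at 6 d (median 0.04) and 1 higher and 2 lower at 9 d (median -0.32). From 3 d to 6 d 3 rose and 1 fell (median 0.44), and from 6 d to 9 d none rose and 2 fell, SKIL (-1.68) and TGFB2 (-1.65), with a median of -0.21. Of the 3 rises from 3 d to 6 d 2 kept their call in every alternative, and the fall, of TGFB2, was lost at a pseudocount of 1 (-0.96), after median ratio scaling (-0.93) and without 3 d replicate 3 (-0.98) or 6 d replicate 1 (-0.99). The SKIL call from 6 d to 9 d was lost when only the 6 libraries compared were fitted, with a replicate block, and without any 1 of the 6 d libraries, 9 d replicate 2 or 9 d replicate 3 (-1.73 to -1.32). The SKIL call at 9 d against 0 d was lost when only the 6 libraries compared were fitted, with a replicate block, after median ratio scaling (-1.31), and without 0 d replicate 2 or 3 or 9 d replicate 2 or 3 (-1.39 to -1.16). KLF6, like CTGF, was low at 3 d alone.

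Cofactors through which these factors act were tested for 9 of 9. Among them KAT2B, an acetyltransferase, rose at 3 d (1.16) and fell from 3 d to 6 d (-1.43), and no other was called by limma in any comparison. At an unadjusted p under 0.05 the count was 6 of 9 at 3 d, 6 at 6 d and 5 at 9 d against 0 d, 6 from 3 d to 6 d and 1 from 6 d to 9 d. Without 3 d replicate 3 the rise of KAT2B at 3 d was 0.85 and not called. CTBP1, a partner of KLF3, averaged between 82.2 and 119 FPKM over the days, and SIN3A, a partner of KLF11, between 164 and 248 FPKM. The medians of the list were -0.16, -0.27 and -0.20 at 3 d, 6 d and 9 d against 0 d, -0.41 from 3 d to 6 d and 0.13 from 6 d to 9 d.

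The rest of the family was read beside the 10. Of 8 other Kruppel-like factors 5 were tested, KLF1 and KLF8 did not exceed 0.16 FPKM in any library, and KLF18 had no entry. KLF16 lay between 19.2 and 55.05 FPKM, and it fell at 3 d (-1.10) and rose from 3 d to 6 d (1.07), but without 0 d replicate 3 the fall was -0.92 and not called. KLF12, a repressor of AP-2 alpha, was at 13.5, 13.3 and 10.4 FPKM at 0 d, 5.38, 0.290 and 7.79 at 3 d, 11.2, 15.2 and 15.0 by 6 d, and 8.65, 7.19 and 8.13 at 9 d. Its 3 d libraries were under those of 0 d and 6 d, and 3 d replicate 2 was the lowest by far. KLF12 rose from 3 d to 6 d by 2.42 (limma, Benjamini-Hochberg adjusted p = 0.0446), a call lost without any 1 of the 0 d, 6 d or 9 d libraries, where the adjusted p was between 0.058 and 0.101. It was also lost at a pseudocount of 0.01, with no filter, with a replicate block and with only the 6 libraries compared (limma, Benjamini-Hochberg adjusted p = 0.0509 to 0.14). Without 3 d replicate 2 the rise was 1.07 and called. Without replicate 2 on all days, an alternative chosen after seeing the data, the value was 0.99 and not called. KLF13 reached 0.30 FPKM, KLF14 0.21 and KLF17 0.26. KLF17 was called lower at 3 d (-1.58) and higher from 3 d to 6 d (1.35), and at a pseudocount of 1 both calls were lost. The medians of the 5 were -1.10, -0.02 and -0.62 at 3 d, 6 d and 9 d against 0 d, 1.07 from 3 d to 6 d and -0.40 from 6 d to 9 d.

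The related SP factors, which bind the same GC boxes, were tested for 5 of 9. SP1 lay between 45.2 and 84.8 FPKM, SP3 between 98.6 and 284 FPKM, SP4 between 1.74 and 3.91, SP2 between 0.68 and 1.97 and SP7, a bone regulator, between 0.41 and 1.47. SP8 and SP9 were at 0 in all libraries, and SP5 and SP6 did not exceed 0.07 FPKM. Of the 5 tested, SP2 fell at 3 d (-1.17), a call lost at a pseudocount of 1 (-0.67), and none was called by limma in the other comparisons, where 1 to 3 of 5 had an unadjusted p under 0.05. Their median log2 fold change was 0.07 at 3 d, -0.09 at 6 d and -0.23 at 9 d against 0 d, -0.20 from 3 d to 6 d and -0.14 from 6 d to 9 d.

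Circular RNAs were looked for by the exact symbol of their host gene. A host named jointly with another gene, as in the KLF9 entry of the mRNA table, would be missed. Of 14070 circular RNAs in the deposited table, 1 is assigned to a member in this way, circRNA699 from 1 exon of KLF7. It had 2, 1 and 1 junction reads in the 0 d libraries, 0, 1 and 2 at 3 d, 1, 2 and 1 by 6 d, and 0, 3 and 0 at 9 d, or 14 in all. The libraries held between 5358 and 10729 junction reads each, and with so few reads of circRNA699 a difference between days was not tested. A circular RNA of KLF12, circRNA1788, had 4 reads in all.

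Muscle markers were lower at 3 d, 6 d and 9 d than at 0 d, beside the lower KLF2 and KLF4. Of the 7 muscle markers tested, 6 fell at 3 d, 5 by 6 d and 6 at 9 d, and none rose. Creatine kinase (CKM) averaged 133 FPKM at 0 d and 3.28 at 3 d, and the summed markers were 824 to 938 FPKM in the 0 d libraries and 269 to 297 in the 3 d libraries. Of 8 adipocyte markers, 5 rose and 1 fell at 3 d, and 6 rose and none fell at 6 d, as at 9 d. At a pseudocount of 1 the calls of ADIPOQ, PLIN4 and CIDEC at 6 d (0.63, 0.97 and 0.27) and at 9 d (0.62, 0.97 and 0.37) were lost, and so were those of ADIPOQ (0.74) and PLIN4 (0.71) at 3 d. The call of LEP at 6 d was lost at a pseudocount of 0.01 (limma, Benjamini-Hochberg adjusted p = 0.213). CD36, a fatty acid transporter, was higher by 4.33 on the log2 scale at 9 d, and LEP fell at 3 d (-4.06) and was higher at 9 d (3.06). Of 8 fibroblast and preadipocyte markers tested, 4 rose and 3 fell at 3 d. At 6 d 3 rose and 2 fell, and at 9 d 2 rose and 1 fell. CD34 fell on each of these days, calls lost at a pseudocount of 1 (-0.56, -0.67 and -0.65). Of 3 blood and immune markers tested, CD14 and CSF1R rose at 3 d and CD14 at 9 d. At a pseudocount of 1 the calls of CSF1R at 3 d (0.50) and CD14 at 9 d (0.94) were lost. None of the 5 markers of dividing cells was called by limma, where 2 had an unadjusted p under 0.05 at 3 d, 1 at 6 d and 3 at 9 d. From 3 d to 6 d 2 had one, and from 6 d to 9 d 4, with a median log2 fold change of -0.47 in that last step. The part of these cell type markers in the levels of the Kruppel-like factors was not tested.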

How the data were processed

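RNA of 12 libraries of bovine cells labelled intramuscular adipocytes, 3 for each of 4 days of differentiation, was measured. The authors mapped the reads and deposited the mRNA table as FPKM per library, and the processing notes name HISAT2 2.0, StringTie 1.3.0, Bowtie 0.12.2 and the mouse build mm8, whereas the paper names a cattle build. The labels describe poly(A) selection and the paper depletion of ribosomal RNA. The authors deposited circular RNAs as a count of junction reads per library, not normalised. The authors tested with edgeR, which needs read counts that the mRNA table does not hold.

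Here log2(FPKM + 0.1) of the 15402 entries with a mean of at least 0.1 FPKM was fitted with limma 3.58.1 in R 4.3.3, with 1 mean per day over all 12 libraries and a trended, non-robust prior. Benjamini-Hochberg adjustment ran over all tested genes within each of 5 comparisons. Called means an absolute log2 fold change over 1 and an adjusted p under 0.05. The fit was tested on simulated data. A member is the entry that holds its symbol, also where symbols are joined, as in 727 entries. Tables were read with Python 3.11.15, pandas 2.3.3 and NumPy 2.4.6 and drawn with Matplotlib 3.10.9.

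The members and gene lists were chosen with earlier results of these data known. Named besides the 10 members and the other family genes are up to 4 called genes per list and comparison, by size of change, and up to 3 of the most similar genes per member by Pearson r. Other genes that the text singles out were chosen after their values were seen. Alternatives were pseudocounts of 0.01 and 1, no filter, a mean of at least 1 FPKM, median ratio scaling, fitting only the 6 libraries compared, a replicate block, and leaving out each library. Leaving out a replicate number on all days was chosen after seeing the data. Another 12 columns of values per library in the tables read were not used, nor were the tables of long noncoding RNAs and microRNAs.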

Additional observations from a re-analysis of the deposited data

How the results depend on the processing

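Of 350 fold changes of the 10 members recomputed with all libraries under 7 alternatives, 345 kept their direction and side of the threshold. Of 600 without 1 library, 585 did, and of 150 without 1 replicate number, 140. None that turned its direction was called. At a pseudocount of 1 the genes called numbered 2184, 967 and 888 at 3 d, 6 d and 9 d against 0 d, 1688 from 3 d to 6 d and 368 from 6 d to 9 d, since small values count less. With a mean of at least 1 FPKM 1114 were called at 9 d against 0 d, as fewer genes were tested. After median ratio scaling KLF6 was at 0.0053 at 9 d against 0 d, and the cause was not tested.

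Ranges without 1 library were -0.076 to 0.48 for KLF10 at 3 d against 0 d and -0.13 to 0.43 from 3 d to 6 d. For KLF11 they were -1.19 to 0.034 at 6 d and -0.21 to 0.74 at 9 d against 0 d, and -0.30 to 0.76 from 3 d to 6 d. For KLF3 they were -0.17 to 0.80 from 3 d to 6 d and -0.97 to 0.0029 from 6 d to 9 d. An alternative chosen after seeing the data left out 1 replicate number on all days. Without replicate 1 KLF10 was at -0.25 at 3 d and -0.040 at 6 d against 0 d, and KLF3 at -0.17 from 3 d to 6 d and 0.17 from 6 d to 9 d. Without replicate 2 KLF10 was at -0.27 from 3 d to 6 d, and without replicate 3 KLF11 was at -0.24 at 9 d against 0 d. The cause was not tested.

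With a replicate block the genes called were 3591, 1746 and 1683 at 3 d, 6 d and 9 d against 0 d, 2933 from 3 d to 6 d and 657 from 6 d to 9 d, and 5, 3, 3, 3 and 3 members were called in those comparisons. Over 18 pairs of libraries of different days with the same replicate number, residuals correlated at r = -0.10 to 0.11 (mean 0.03, against -0.01 for other numbers). Whether the numbers pair the samples cannot be decided from these values, since a mean over all pairs can hide a pairing of some. The 188 calls of other listed genes never turned direction, and 59 of them were lost in at least 1 alternative. The number of reads behind each FPKM value is not in the table, and with 3 libraries a day a change must be large against the spread within days to be called, which bears most on KLF3, KLF10 and KLF11.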
